A study of Mus musculus with 4 samples.

Results

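The IL-1 and IL-18 receptor family was described in a genome-wide map of H3K27ac, the acetylation of lysine 27 of histone H3 that marks active promoters and enhancers, in cultured mouse Th17 cells. The members were 8 genes chosen by name: the receptor genes Il1r1, Il1r2, Il1rl1, Il1rl2, Il18r1, Il18rap and Il1rap, and Il1rn, which encodes a soluble antagonist. A peak belonged to the family if it overlapped a member gene or the 20000 bp on either side (GRCm38). This gave 46 peaks of the 56285 in the list, around 8 of 21631 protein-coding genes (autosomes and X). The cells were grown from naive CD4+ T cells of C57BL/6 mice. All libraries came from cells stimulated for 72 h through CD3ε (antibody at 0.25 μg/mL) and CD28 (1 μg/mL) in the presence of IL-6 (20 ng/mL) and TGF-β (0.1 ng/mL in the treatment label, a range in the growth protocol). Neither label names IL-1 or IL-18 as an addition to the culture, and no age is given. Chromatin of 2 biological replicates was immunoprecipitated for H3K27ac (2 libraries), and their input DNA was sequenced as the control (2 libraries). The names of the peaks carry the tag WT_Ddx5, which the sample labels do not explain.

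The deposited list holds a position for each peak and no height, fold enrichment, q value or value per library. The depth of the libraries is therefore unknown, no value below has a replicate error, and presence and width of a peak are what can be described. The list holds 1 cell state and no contrast between conditions, so all values are descriptions without a test. A peak lay within 1000 bp of the annotated start in 3 of 3 T cell and 4 of 4 Th17 marker genes. The counts were 0 of 2 myeloid and 0 of 2 B cell marker genes. For mast cell and innate lymphoid markers and for epithelial markers, each count was 0 of 5. Over all protein-coding genes with an annotated start, the share was 55.0%. Genes without an annotated start were left out, so only 2 of 5 listed myeloid and 2 of 5 listed B cell markers were counted. The longest acetylated length among these other cell types was at the B cell gene Cd79a, with 14881 bp of peak in and around the gene and 687 bp inside it. Of the myeloid genes, Cd14, which has no annotated start, had 9186 bp, with 1236 bp inside the gene. Itgam had 4439 bp, with 1055 bp inside, Csf1r had 156 bp, and Adgre1 and Lyz2 had none.

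Receptors of this family carry immunoglobulin domains outside the cell, and most carry a TIR domain inside it that recruits the adaptor MyD88 and IRAK kinases and leads to NF-κB activity. A ligand first meets its specific receptor chain: IL1R1 binds IL-1α and IL-1β, IL1RL2 binds the IL-36 cytokines, IL1RL1 (ST2) binds IL-33 and IL18R1 binds IL-18. An accessory chain then completes the signalling pair, IL1RAP for IL-1, IL-33 and IL-36, and IL18RAP for IL-18. IL1R2 lacks the signalling domain and acts as a decoy, and the antagonist encoded by Il1rn occupies IL1R1 without a signal. IL-1 is known to promote the differentiation and upkeep of Th17 cells, IL-18 receptors are used by Th1 and other effector T cells, and ST2 is best known from Th2 cells, some regulatory T cells, mast cells and type 2 innate lymphoid cells.

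All 8 members had at least 1 peak in their window, against 70.9% of protein-coding genes, so having a peak nearby was common. A peak inside the gene was present in 7 of the 8, against 59.7% of protein-coding genes. The genes differed widely in how much of the window was covered. The covered length, here called the acetylated length, was 20666 bp in 12 peaks for Il1r1 and 11350 bp in 10 peaks for Il1r2. It was 7378 bp in 6 peaks for Il18r1, 6245 bp in 4 peaks for Il18rap and 5645 bp in 6 peaks for Il1rl1. The lowest lengths were 3824 bp in 9 peaks for Il1rl2, 2453 bp in 5 peaks for Il1rn and 1818 bp in 2 peaks for Il1rap. Il1r1 thus had more acetylated length than 97.4% of protein-coding genes and Il1r2 more than 91% of them, whereas Il1rn exceeded 50.5% and Il1rap 44.3%. Long genes have long windows, but per kb of window the order was the same: 155 bp for Il1r1, 141 bp for Il1r2, 98 bp for Il18r1, 81.8 bp for Il18rap, 56.1 bp for Il1rl1, 46.1 bp for Il1rl2, 44.9 bp for Il1rn and 9.64 bp for Il1rap. By this measure Il1r1 exceeded 88.4% of genes and Il1rap 35%. The median over the 8 members was 5945 bp, against 2399 bp over all protein-coding genes.

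**Figure D1:**
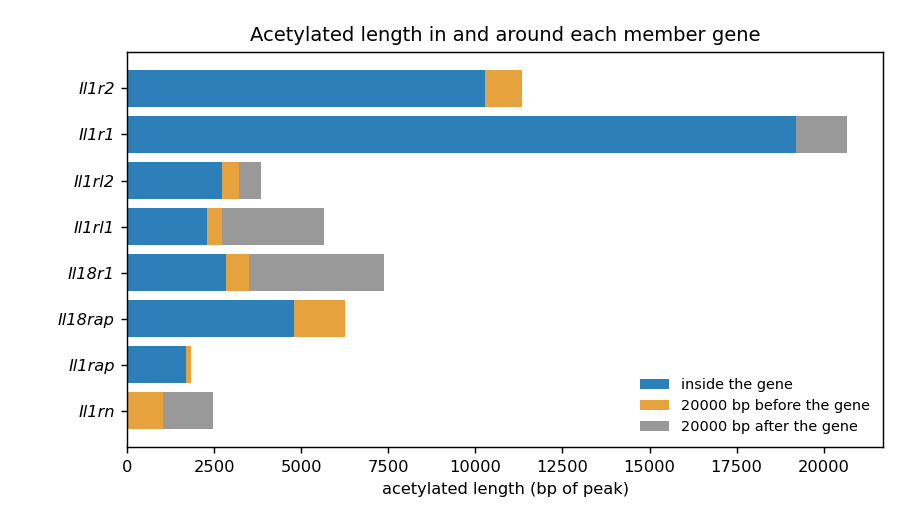
Acetylated length of each member gene (bp of peak, horizontal axis), split into the part inside the gene, the 20000 bp before it and the 20000 bp after it, in the direction of transcription. Il1r1 has the longest bar, 20666 bp, nearly all inside the gene, while Il1rn has no acetylated length inside the gene.

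The windows of neighbouring members overlap, so part of these lengths is counted under several names. All 6 peaks in the window of Il18r1 also lay in the window of another member, as did 4 of the 6 peaks of Il1rl1. Of the 2916 bp after the Il1rl1 gene, 2836 bp lay inside Il18r1. Inside the gene bodies proper, where no member overlaps another, the acetylated length was 19222 bp for Il1r1 (20.5% of the gene), 10282 bp for Il1r2 (25.4%), 4777 bp for Il18rap (13.1%), 2836 bp for Il18r1 (8.03%), 2726 bp for Il1rl2 (6.34%), 2301 bp for Il1rl1 (3.8%), 1680 bp for Il1rap (1.13%) and 0 bp for Il1rn. Il1r2 was therefore the most densely covered gene of the family and Il1r1 the one with the longest covered stretch. Counted without overlap, the family held 50415 bp.

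The members also differed at their starts of transcription. RefSeq gives 14 starts for the 8 genes, and 9 of them lay inside a peak, against 49.3% of the 21045 starts of protein-coding genes. At least 1 start had a peak within 1000 bp in 6 of the 8 genes, against 55.0% of protein-coding genes with an annotated start. The 6 were the IL-1 receptor Il1r1, the decoy Il1r2, the IL-36 receptor Il1rl2, both chains of the IL-18 receptor (Il18r1 and Il18rap) and the shared accessory chain Il1rap. Il1rl1 and Il1rn had none. Il1r1 was marked at both of these RefSeq starts, as were all 3 close starts of Il18r1, which share 1 peak. The annotated gene Il1r1 begins before its first RefSeq start, at 40222480, and no peak lay within 1000 bp of that beginning. Of the genes with several starts, 50.2% had a peak within 1000 bp of each.

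**Figure D2:**
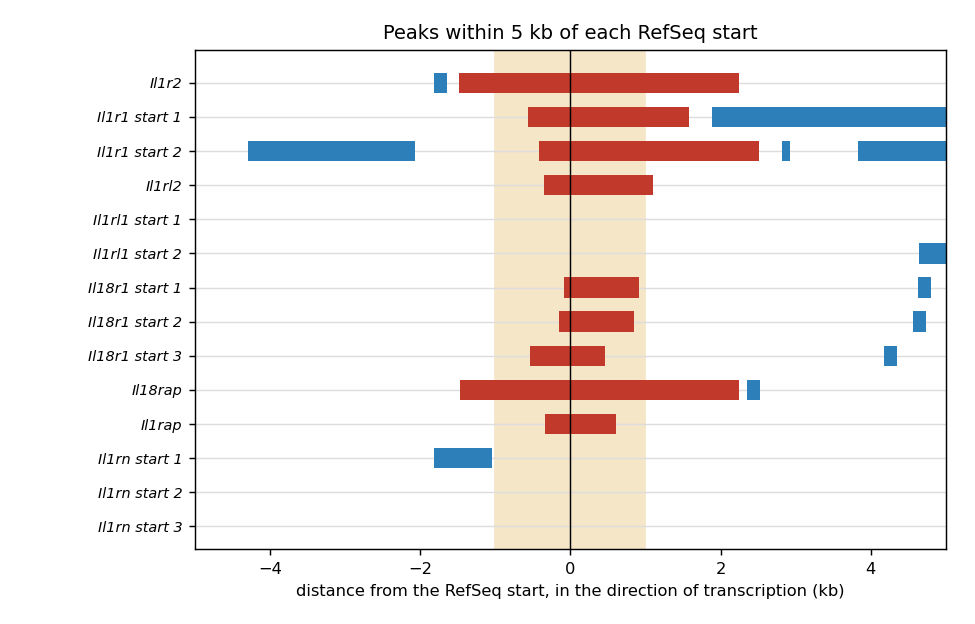
Peaks within 5 kb of each of the 14 RefSeq starts of the family (horizontal axis, kb from the start in the direction of transcription; 1 row for each start). Red bars are peaks that contain the start, blue bars are other peaks, and the shaded band spans 1000 bp on each side. The starts of Il1rl1 and Il1rn have no red bar.

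The 6 peaks over starts on chromosome 1 were of unequal width. The peak over the start of Il1r2 was 3735 bp wide, that of Il18rap 3708 bp, those at the upstream and downstream starts of Il1r1 2151 and 2939 bp, that of Il1rl2 1444 bp and that of Il18r1 991 bp. On chromosome 16 the peak at the start of Il1rap measured 946 bp. Peaks over a start had a median width of 1918.5 bp in the whole list (quartiles 1320 and 2797 bp), so that Il18r1 and Il1rap lay below the lower quartile, and Il1r2, Il18rap and the downstream start of Il1r1 above the upper one. The chains of the IL-18 receptor thus differed, with the accessory chain Il18rap marked over 3708 bp and the ligand-binding chain Il18r1 over 991 bp. The peaks reached further into the gene than away from it at all of these starts except the third start of Il18r1, where they reached 534 bp upstream and 456 bp downstream. For Il1r1 the reach was 569 bp upstream and 1581 bp downstream of the first start, and 423 and 2515 bp at the second. The medians over all starts inside a peak were 745 bp upstream and 1069 bp downstream.

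Il1r1 (chromosome 1, 40222480 to 40316201, forward strand) had its acetylation in 5 blocks when peaks at most 1000 bp apart were joined. The first began at the upstream start (40225080) and ran into the gene. Its 5 peaks spanned 13488 bp (40224511 to 40237998) and covered 11204 bp. It held the widest of the family's 46 peaks, 4273 bp (40226971 to 40231243), which began 1891 bp downstream of the start and was wider than 96.3% of the list, and a further peak of 4129 bp (40233870 to 40237998), 8790 bp downstream. The next block was 1 peak of 919 bp (40239615 to 40240533). Another, 1 peak of 2230 bp (40262286 to 40264515), lay 2071 bp before the downstream start. The block after it covered the downstream start (40266586) with the 2939 bp peak (40266163 to 40269101) and continued with peaks of 104 and 1684 bp to 40272104. Beyond that point 43180 bp of the gene held no peak up to the last block, a peak of 142 bp near its finish. Of the 19222 bp inside Il1r1, 14132 bp lay in 9 peaks that were not at a start.

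Both marked starts of Il1r1 are shown because the gene is the most acetylated member and its starts differ in sequence. Each window runs from 250 bases before to 50 after the start, 5′ to 3′ on the forward strand, from RefSeq (GRCm38.p6), at chr1:40224830-40225129 and chr1:40266336-40266635. Neither holds a match to any of the 7 motifs searched, so no letters are in capitals.
Il1r1 upstream start: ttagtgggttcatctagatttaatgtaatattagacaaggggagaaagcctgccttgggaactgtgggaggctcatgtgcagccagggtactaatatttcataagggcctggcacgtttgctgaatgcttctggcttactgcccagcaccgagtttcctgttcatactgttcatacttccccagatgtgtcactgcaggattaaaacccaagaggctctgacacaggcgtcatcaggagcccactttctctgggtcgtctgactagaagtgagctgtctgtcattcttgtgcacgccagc
Il1r1 downstream start: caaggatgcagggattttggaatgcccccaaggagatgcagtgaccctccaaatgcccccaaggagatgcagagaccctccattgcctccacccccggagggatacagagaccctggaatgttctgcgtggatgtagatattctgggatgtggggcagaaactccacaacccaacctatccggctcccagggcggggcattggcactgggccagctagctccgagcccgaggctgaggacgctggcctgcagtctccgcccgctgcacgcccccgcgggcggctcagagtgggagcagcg
The upstream window had 49.3% G and C and 5 CpG pairs, and the downstream window 63.3% and 14 pairs. The median promoter had 56.7% and 13 pairs.

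Il1r2 (40084692 to 40125230), the decoy receptor gene, opened the cluster on its left side. Its RefSeq start (40086093) lay in the 3735 bp peak (40084604 to 40088338), which extended 1489 bp upstream and 2245 bp downstream and also overlapped the noncoding gene Gm16894. After 17501 bp without a peak came a second group inside the gene, with peaks of 2086 bp (40105840 to 40107925) and 3244 bp (40108002 to 40111245) separated by 76 bp, followed by peaks of 788 and 517 bp. The 4 peaks of the gene body covered 6635 bp, more than the start peak. The 97249 bp between the finish of Il1r2 and the annotated beginning of Il1r1 held no peak, and the whole stretch without a peak was 107791 bp, longer than 94.1% of the gaps between neighbouring peaks on a chromosome, whose median was 3595 bp. The rule's edge fell close to a wide peak on the other side of Il1r2. The outermost peak inside its window was 108 bp wide, and the next one outside measured 9645 bp (40051100 to 40060744), 25349 bp upstream of the start and 3948 bp beyond the edge. That peak was wider than 99.4% of the list and lay between Il1r2 and the kinase gene Map4k4. At the right edge of the cluster the outermost peak inside measured 207 bp and the next one outside 250 bp, 14925 bp beyond the edge.

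**Figure D3:**
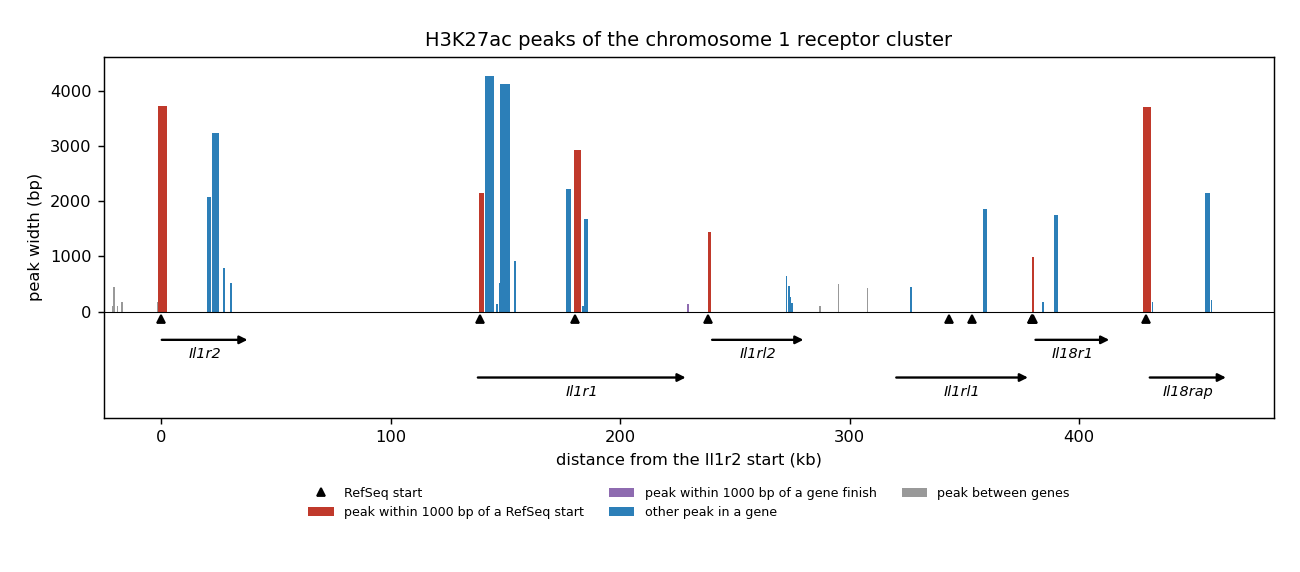
The 39 peaks of the chromosome 1 receptor cluster, each drawn at its place (horizontal axis, kb from the start of Il1r2) with its width as height (vertical axis, bp) and coloured by place. Arrows below are the genes in the direction of transcription and triangles the RefSeq starts. The tallest bars stand at Il1r2, Il1r1 and Il18rap, and the start triangles of Il1rl1 have no bar over them.

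The 6 chromosome 1 genes lie head to tail on the forward strand, and from 20000 bp before Il1r2 to 20000 bp after Il18rap there were 39 peaks covering 46162 bp. Their median width was 517 bp, against 579 bp in the whole list. The 6 peaks at starts made up 15.4% of the peaks and 32.4% of the covered length, the 25 peaks elsewhere in genes 64.1% and 63.2%, and the 8 peaks between genes 20.5% and 4.41%. The peaks between genes were all short, from 100 to 503 bp. The 14 peaks of at least 1000 bp were 35.9% of the cluster's peaks and 81% of its covered length, close to the 35.5% and 78.1% of the whole list. Each of them lay at a start or inside Il1r2, Il1r1, Il1rl2, Il1rl1, Il18r1 or Il18rap. These genes take up most of the stretch, and the split by place was not computed for the whole list. Peaks under 200 bp numbered 12 (30.8%), against 18% of the whole list, and held 3.58% of the cluster's length. When peaks at most 12.5 kb apart were stitched together, the cluster fell into 12 separate groups and not into 1 long domain. The group with the most acetylated length of those inside the family was that at the upstream start of Il1r1, with 12123 bp, at rank 948 of 18748 such groups in the genome.

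Il1rl2 (40324589 to 40367555), the IL-36 receptor gene, had a start peak of 1444 bp (40324244 to 40325687) and then 32594 bp without a peak. Near its far end stood a group of 5 small peaks of 108 to 639 bp, within 2534 bp (40358282 to 40360815), which together covered 1627 bp. The space from Il1rl2 to Il1rl1, 37308 bp, held 3 peaks of 108, 503 and 428 bp. This part of the cluster had many peaks and little covered length.

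Il1rl1 (40404864 to 40465418), which encodes the IL-33 receptor ST2, had no peak at either annotated start. The nearest peak lay 14707 bp downstream of the first start (40429570) and 4648 bp downstream of the second (40439629). It was 1857 bp wide (40444277 to 40446133) and was the only peak of at least 1000 bp inside the gene. A second peak of 444 bp (40412536 to 40412979) lay 16591 bp upstream of the first start, inside the longest annotated form of the gene. Where either annotated end of a gene is used in place of its starts, Il1rl1 counts as marked, and so do 53.8% of protein-coding genes. The peak concerned begins 54 bp beyond the finish of Il1rl1 and contains all 3 starts of Il18r1, and 133 bp separate the annotated genes. By its own starts Il1rl1 was unmarked, and only its finish lay near a peak.

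Il18r1 (40465552 to 40500854) had the 991 bp start peak (40465472 to 40466462) and, 9338 bp downstream of its last start, a peak of 1752 bp (40475344 to 40477095), with a peak of 173 bp between them. The next 36798 bp held no peak. Il18rap (40515362 to 40551707) began with the 3708 bp start peak (40513894 to 40517601), of which 1468 bp lay before the gene. A second element of 2158 bp (40541131 to 40543288) stood 25769 bp downstream of the start, followed by a peak of 207 bp. The 28278 bp from the finish of Il18rap to the sodium-proton exchanger gene Slc9a4 held no peak, so the cluster's acetylation ended inside Il18rap. Leaving out small peaks of 173, 172 and 207 bp, both IL-18 receptor genes had 1 peak at the start and 1 wide peak inside the gene. The second was the wider of the pair at Il18r1, and the first at Il18rap. Il1rap had a similar layout, with narrower peaks of 946 and 872 bp.

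Windows at 1 start of each IL-18 receptor gene are shown for the marked pair, and the downstream start of Il1rl1 for the neighbouring gene that had no start peak. They lie at chr1:40465756-40466055, chr1:40515112-40515411 and chr1:40439379-40439678, forward strand, from RefSeq (GRCm38.p6). Capitals mark the motif matches named after the sequences.
Il18r1 start 3: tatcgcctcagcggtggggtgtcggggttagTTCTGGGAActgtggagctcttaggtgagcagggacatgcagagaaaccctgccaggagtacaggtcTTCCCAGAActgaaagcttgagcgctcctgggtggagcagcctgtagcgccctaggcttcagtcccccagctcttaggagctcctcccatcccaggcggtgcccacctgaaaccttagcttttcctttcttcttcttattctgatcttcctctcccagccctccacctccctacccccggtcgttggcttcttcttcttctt
Il18rap start: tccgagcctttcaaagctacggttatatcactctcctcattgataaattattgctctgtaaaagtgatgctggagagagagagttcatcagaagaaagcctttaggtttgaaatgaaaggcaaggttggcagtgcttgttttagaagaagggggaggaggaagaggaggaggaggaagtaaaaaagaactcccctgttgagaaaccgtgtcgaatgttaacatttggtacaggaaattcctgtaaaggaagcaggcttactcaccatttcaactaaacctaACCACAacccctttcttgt
Il1rl1 downstream start: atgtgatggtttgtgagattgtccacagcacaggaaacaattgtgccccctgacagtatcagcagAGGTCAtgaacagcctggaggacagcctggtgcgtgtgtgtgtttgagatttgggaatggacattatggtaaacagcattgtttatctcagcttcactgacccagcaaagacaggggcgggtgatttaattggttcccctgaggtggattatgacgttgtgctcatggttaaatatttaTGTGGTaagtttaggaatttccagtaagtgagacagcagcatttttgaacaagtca
The Il18r1 window holds STAT matches (TTCNNNGAA) at 219 and 152 bases before the start, TTCTGGGAA and TTCCCAGAA. The Il18rap window holds a RUNX match (TGTGGT, here on the other strand) 31 bases after the start. The Il1rl1 window holds the ROR core letters (AGGTCA) 185 bases and a RUNX match 6 bases before the start. The starts not shown differed: the first start of Il18r1 had no match and its second a RUNX match. The upstream start of Il1rl1 had no match.

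Over the 14 member windows, 7 motifs were searched on both strands and gave 12 matches, none overlapping another. RUNX letters (TGTGGT) were in 4 windows, against 14.7% of 21045 promoters of protein-coding genes. STAT letters (TTCNNNGAA) were in 2 windows, at Il1r2 and Il18r1, against 7.76% of promoters, and the ROR core letters (AGGTCA) in 2, at Il1rl1 and Il1rn, against 14.6%. AP-1 (TGANTCA, 7.04% of promoters) was found in 1 window, at Il1rn, ETS (CCGGAAG, 11.7%) in 1, at Il1rl2, and IRF (GAAA followed after 2 bases by GAAA, 3.38%) in 1, at Il1rap. No window held the κB letters GGGANTTCC or the form with 1 more T in its run, which 2.27% of promoters hold. A match is a run of letters and not a measured binding site, and its absence concerns these 300 bases only. Of the 3 windows of Il18r1, the first 2 overlap in sequence, as do 2 of Il1rn.

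Most start windows of the family held few CpG pairs, with 11 of 14 below the median of 13 over all promoters. Of the 9 windows whose start lay in a peak, 8 had fewer CpG pairs than the median of 21 over all promoters with a peak within 1000 bp. They ranged from 3 pairs at Il1rl2 and 4 at Il18rap to 16 at Il1r2. The exception was Il1rap, with 33 pairs and 72% G and C, above 88.6% of promoters by CpG count. The 5 windows without a peak, at Il1rl1 and Il1rn, had 1 to 5 pairs, against a median of 4 over all promoters without a peak. The counts of marked and unmarked windows overlapped, and Il1r2, Il1rap and the downstream start of Il1r1 stood above the rest.

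Il1rap (chromosome 16, 26581509 to 26730128), the accessory chain for IL-1, IL-33 and IL-36, had a start peak of 946 bp (26581371 to 26582316) and 1 peak of 872 bp (26667474 to 26668345) 85769 bp downstream, inside the gene. No other peak lay within 539439 bp to the left or 680044 bp to the right. These gaps are longer than 98.6% and 98.8% of the gaps in the list, and the 1.31 Mb between the flanking peaks held 5 protein-coding genes, among them Il1rap and the tight junction genes Cldn1 and Cldn16. Il1rap had the least acetylated length of the 8 members, and both of its peaks were under 1000 bp wide.

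Il1rn (chromosome 2, 24336860 to 24351491), the antagonist gene, had no peak inside the gene. The nearest peak, 777 bp wide (24335045 to 24335821), ended 1039 bp before the first start (24336860), just outside the 1000 bp used for a start peak. The other 2 starts lay 9470 and 9550 bp from it. Of the 5 peaks in the window, 1 more lay before the gene (256 bp) and 3 lay after it, with 1420 bp in all. The last of these, 562 bp wide, contained the start of the neighbour Psd4, and the other 2 were nearer to that start than to any start of Il1rn. The next peaks outside the window were 492 bp wide on the left and 223 bp on the right, 11505 and 11260 bp beyond its edges.

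**Figure D4:**
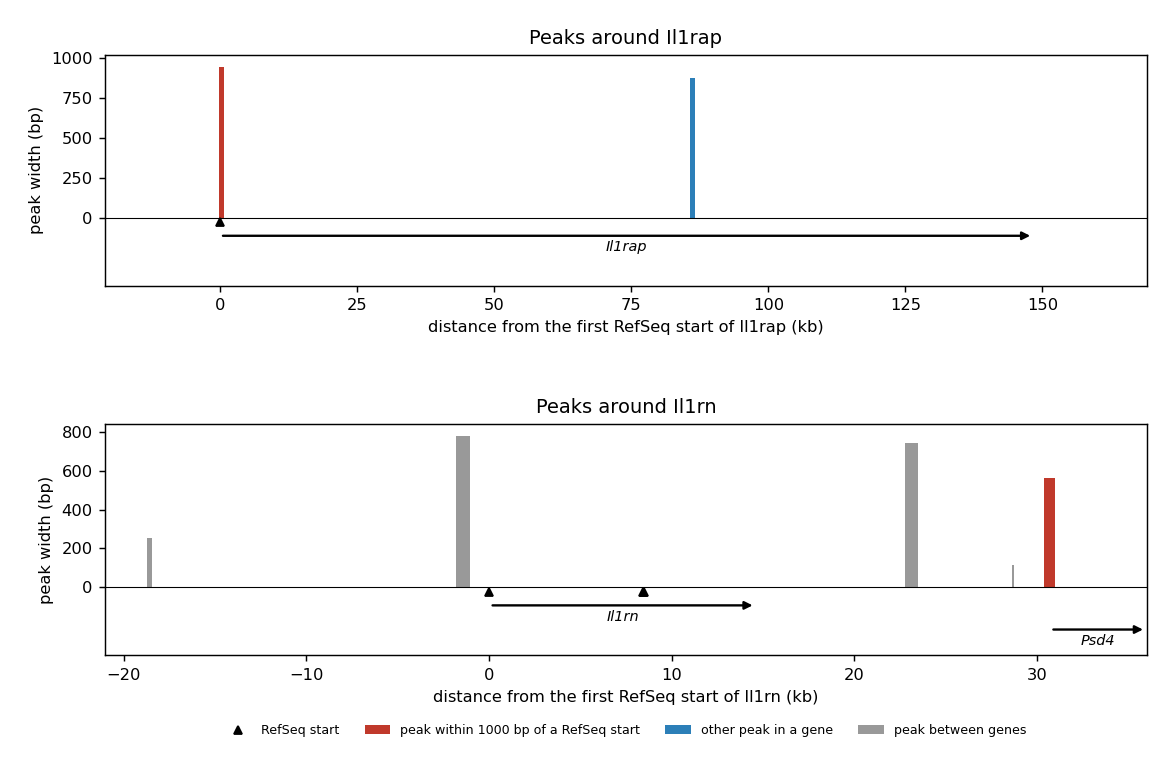
Peaks in the windows of Il1rap (upper panel) and Il1rn (lower panel), drawn at their distance from the gene's first RefSeq start (kb) with peak width as height (bp). Arrows are genes and triangles RefSeq starts of the member. Il1rap has 1 peak at its start and 1 inside the gene, and the bars around Il1rn all lie outside it.

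Most genes for ligands, inhibitors and related receptors of the pathway were bare, with no peak in the window. Most of the pathway's signalling genes had a start peak. Among 13 genes for ligands, soluble inhibitors and related receptors, 2 of 11 with an annotated start had a start peak, Il18 and Il18bp, which encodes the IL-18 binding protein, and the median acetylated length was 0 bp. Sigirr, an inhibitory member of the receptor superfamily, had the most, 14547 bp, followed by Il1a with 4203 bp, none of it inside the gene, and Il18 with 4084 bp. Il1b, Il1rapl1 and Il1rapl2 were among the 8 genes without a peak in the window. The IL-36 genes, all among these 8, lie close together on chromosome 2. Over all protein-coding genes, 70.9% had a peak in the window. A start peak was present in 55.0% of protein-coding genes with an annotated start. Of 21 signalling genes, 16 of 17 with an annotated start had a start peak and the median was 4680 bp, led by Nfkb1 (71726 bp), which encodes an NF-κB subunit, Irak2 (35655 bp) and Peli1 (31247 bp), a ubiquitin ligase of the pathway.

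Other cytokine receptor genes of T cells are set beside the family without a test. The median acetylated length was 5945 bp over the family's 8 genes, against 25062 bp over 3 IL-23 and IL-12 receptor genes, 24616 bp over 8 γ chain receptor genes and 3675.5 bp over 6 IL-6 and gp130 family genes. Il1r1, with 20666 bp, had the most in the family. It lay below Il23r (25062 bp), Il21r (28565 bp), Il2rb (28681 bp), Il12rb2 (39344 bp), Il4ra (45847 bp), Il6ra (47164 bp) and Il2ra (49704 bp). The IL-7 receptor gene Il7r, named after its value was seen, had 20667 bp. Inside the gene alone, Il1r1 (19222 bp) exceeded Il21r (7703 bp), Il2rb (17712 bp), Il23r (17760 bp) and Il4ra (19134 bp). It stayed below Il12rb2 (24458 bp), Il2ra (30854 bp) and Il6ra (35969 bp). These lengths were not scaled to the length of the gene, and Il1r1 (93722 bp) is the longest of these genes. By the share of the gene covered, Il1r1 (20.5%) was the lowest of them. Windows of neighbours overlap in these lists too, as for Il4ra and Il21r and for Il2ra and Il15ra. In the IL-6 family 2 of 6 genes, Lifr and Osmr, had no peak in the window, while every gene of the IL-1 family, the IL-23 and IL-12 list and the γ chain list had at least 1. A window peak was present in 70.9% of all protein-coding genes, so the IL-6 family, with 4 of 6, was near that share.

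**Figure D5:**
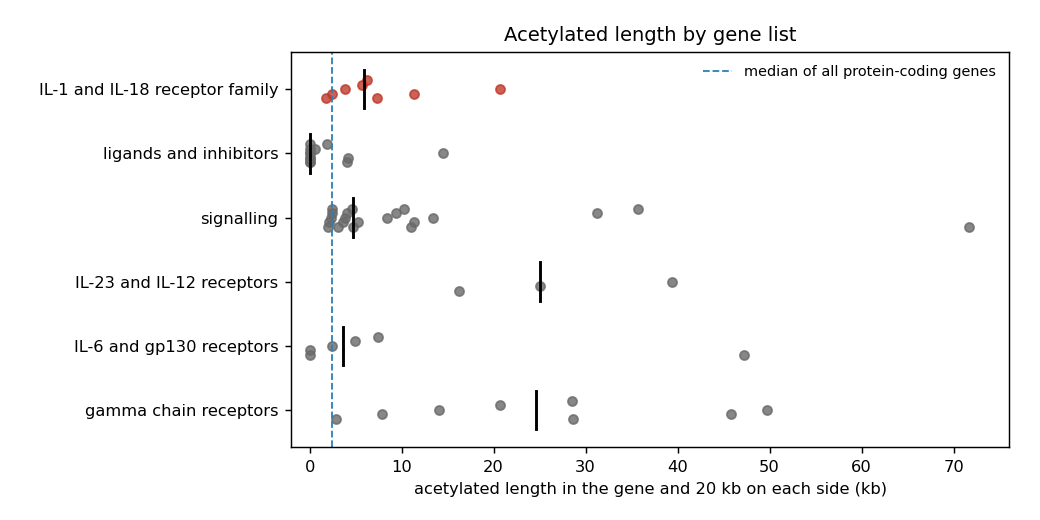
Acetylated length in the gene and 20 kb on each side (horizontal axis, kb) for each gene of the family (red, top row) and of 5 other lists (grey). Black bars are list medians and the dashed line is the median of all protein-coding genes, 2399 bp. The family's points run from 1818 to 20666 bp.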

How the data were processed

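H3K27ac ChIP-seq of 2 biological replicates, each with an input DNA library, gave 1 deposited peak list. Its columns are chromosome, start, end and name, and the authors put no count, signal or other score in it. Per the submitters' processing notes, Bowtie2 2.3.4.1, SAMtools 1.9, MACS2 2.2.6, deepTools and GRCm38 (mm10) are named; peaks were called against each replicate's input, as the series' design text states. Threshold, filters and any pooling are not stated in the labels or headers used here, and peak width depends on them. Starts were taken as counted from 0 (smallest width exactly 100 bp, in 788 peaks) and are printed counted from 1. Peak names number upward along the genome from 15 to 71449 and skip 15150 numbers, 10 of them within the chromosome 1 cluster, and no source used here says why.

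Genes came from RefSeq GRCm38.p6. Its promoter table gives strand and 21045 starts for 17274 of 21631 protein-coding genes and for all 8 members; exons and introns were not used. A start peak lay within 1000 bp of such a start (any overlap counted). Starts were preferred to gene ends, which the plan also allowed, because they carry strand. No test was run, since the list has no sample values. Interval counts were checked on simulated peaks. Members, motifs and lists were chosen with earlier results of these data known. Named are all members and peaks of the cluster at least 1000 bp wide (smaller ones were chosen after their values were seen). From each other list, genes among the longest 3 and first 3 bare are named. Il7r, Il18bp, Il15ra, Il21r and the IL-36 genes fall outside this rule and were named after their values were seen. Of the listed genes, 1 T cell marker had no entry in the table. Alternatives were other flanks, start windows, width minima, midpoints, joining, stitching at 5000 bp and 1 strand for motifs; either gene end was added after seeing the data. Python 3.11.15 and matplotlib 3.10.9 were used.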

Additional observations from a re-analysis of the deposited data

How the results depend on the processing

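Counts of peaks depended on the minimum width. The family's 46 peaks became 26 with peaks of at least 500 bp and 14 with peaks of at least 1000 bp. The 39 elements of the chromosome 1 cluster became 21 and 14 under these minima and 24 when peaks at most 1000 bp apart were joined. The family's acetylated length of 50415 bp ranged from 37390 bp (peaks of at least 1000 bp) to 72984 bp (flanks of 50000 bp, which take in the wide peak before Il1r2), each within 1.5 times of it. Members with a start peak numbered 6 with a window of 500 bp, 7 with 2500 bp (Il1rn added), 4 with peaks of at least 1000 bp (Il18r1 and Il1rap lost) and 7 by either gene end. By gene, the acetylated length changed by more than 1.5 times for 3 members with flanks of 5000 bp for 4 with flanks of 50000 bp, for 3 without flanks, for 4 with peaks of at least 1000 bp, and for none with peaks of at least 500 bp. Stitching at 5000 bp gave 16 groups in place of 12, and motif matches on the gene strand alone were found in 8 pairs of window and motif in place of 11. No paired analysis was possible because the list holds no value per replicate. Without heights or depth, a missing peak means only that none is listed.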

Other observations

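Stitched at 12.5 kb, a group of 11 peaks (chromosome 1, 40022048 to 40068820) reached from the end of Map4k4 into the window of Il1r2. It covered 16839 bp over a span of 46773 bp, at rank 582 of 18748 groups. Of its peaks, 7 with 16012 bp lay beyond the 20000 bp edge and 4 with 827 bp inside it, and the next peak towards Il1r2 was 15454 bp away. Which gene this group belongs to cannot be read from positions. On the far side of Il1rn, a peak of 3817 bp covers an internal start of Psd4, 11 further peaks of that gene lie within 30 kb of the window of Il1rn, and none of them counts for it.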
